A study of Mus musculus with 12 samples.

Results

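3T3-L1 adipocytes collected at day 9 of differentiation (D9) were compared with 3T3-L1 cells collected at day 2 (D2), both after transfection with Paral1-siRNA. This small interfering RNA is directed against Paral1, a long non-coding RNA of adipocytes. All arrays of the series labelled Paral1-siRNA were taken, 3 at D9 and 3 at D2, so that 6 of its 12 arrays entered the day comparison. On each array 30638 probe sets with exactly 1 gene symbol, standing for 30176 genes, were used. 3T3-L1 is an established mouse line of preadipocytes, fibroblast-like cells committed to the fat lineage. In the D9 groups, differentiated adipocytes were detached and transfected in suspension with 100 nM siRNA, and were collected 2 days later in medium without the induction hormones. In the D2 groups, cells received 100 nM siRNA when differentiation was induced and were collected 2 days later, with dexamethasone, IBMX (an inhibitor of cyclic AMP breakdown) and insulin still in the medium. The 6 Ctrl-siRNA arrays, 3 at D9 and 3 at D2, were treated in the same way with a control siRNA, so all 12 arrays share the transfection reagent and the dose. Each experiment gave 1 array per siRNA. The D9 arrays came from experiments 4, 5 and 6 and the D2 arrays from experiments 1, 2 and 3, and replicates 1, 2 and 3 of each day carry these experiments in that order. Day, experiment, mode of transfection and hormones in the medium therefore cannot be told apart. The p-values measure the spread between these experiments. The level of the targeted transcript was not analysed here, so the knockdown was not checked against the labels.

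Adipogenesis in this line runs as a cascade. The induction hormones first raise the early factors C/EBPβ and C/EBPδ while confluent cells pass through a last round of division, and these factors then switch on PPARγ and C/EBPα, which keep each other on and drive the genes of the mature fat cell. Mature adipocytes take up and synthesise fatty acids, store them as triglyceride in a lipid droplet, break down branched-chain amino acids and secrete adiponectin and other hormones.

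Values are log2 array values. An array's brightest background probe set, a probe set made to match no transcript, lay between 5.84 and 7.02 over the 12 arrays, and the mean of this limit over the 6 Paral1-siRNA arrays was 6.34. Of the 30176 genes, 11864 had a mean above that limit. A value under the limit of its own array carries no level. Where a gene was under it on every array of a group, the fold is given as a lower bound, with each array's values raised to that array's own limit where they lay under it, while the adjusted p beside it is that of the values as deposited. Over the genes above the limit the D9 arrays correlated with each other at r = 0.982 to 0.985. Among the D2 arrays, experiments 2 and 3 correlated at r = 0.987, while experiment 1 reached 0.951 and 0.963 with them. Between the days, r ran from 0.839 to 0.898. These correlations are across genes, which are not independent replicates.

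The D9 Paral1-siRNA array of experiment 5 carried a few transcripts that the other D9 Paral1-siRNA arrays did not. Ucp1, the uncoupling protein of brown fat, was at 4.12, 10.65 and 4.23 in D9 experiments 4, 5 and 6, against 3.98, 3.79 and 3.63 in D2 experiments 1, 2 and 3. The Ctrl-siRNA array of experiment 5 had Ucp1 at 4.45. The macrophage lysozyme Lyz2 was at 4.91, 7.12 and 4.83 at D9, against 5.11, 5.37 and 5.02 at D2. Rgs5, a pericyte gene, stood at 6.37 on this array, against at most 4.33 on the others of its group. Ucp1, Lyz2 and Rgs5 were the 3 probe sets that rose at least 2 log2 units above both other D9 Paral1-siRNA arrays and above the Ctrl-siRNA array of the same experiment and passed that array's background limit. Such a count was not particular to this array. By the same rule the D2 Ctrl-siRNA array of experiment 2 also had 3 and the D2 Paral1-siRNA array of experiment 3 had 2. At 1 log2 unit the number ran from 1 to 48 on the other 11 arrays. It was 15 on the D9 Paral1-siRNA array of experiment 5, among them the smooth muscle genes Myh11 (7.41) and Cnn1 (6.09) and Fabp3 (6.99). Lyz1, a near copy of Lyz2, was at 6.06 there, and the signals of this pair cannot be told apart.

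Of 225 markers of 17 other tissues and cell types, 19 were above the array's own background limit (6.00) on the D9 array of experiment 5, 10 in experiment 4 (limit 6.23) and 9 in experiment 6 (limit 7.02). At the common limit of 6.34, a count added after seeing the data, the numbers were 17, 10 and 15 in experiments 5, 4 and 6. At that common limit brown fat markers numbered 7 of 15 in experiment 5, and the log2 values of all 15 summed to 102.7. The D9 array of experiment 4 had 4 and a sum of 82.8, and that of experiment 6 had 6 and 95.3. At D2 the same sum ran from 68.8 to 72.0. These sums, and those of the macrophage markers below, include values under the limit, which carry no level. Ucp1 alone stood at 10.65 in experiment 5 against 4.12 and 4.23 in experiments 4 and 6, and a broader signal was not tested. Among the D9 arrays 10 of the 15 brown fat markers were highest in experiment 5, some of them under the limit. They included Cidea (7.72, 9.33 and 8.78 in experiments 4, 5 and 6), Elovl3 (5.18, 6.54 and 6.38) and Cpt1b (5.66, 6.74 and 5.81). Cox8b, Cox7a1 and Slc36a2 were higher in experiment 6 than in experiment 5, and Zic1 and Lhx8 were under the limit on every D9 array. Macrophage markers numbered 4 of 19 in experiment 5 and 2 in each of experiments 4 and 6. Their sums were 99.8, 95.9 and 88.8 in experiments 5, 4 and 6, and 90.7 to 93.4 at D2. The 4 in experiment 5 were Mpeg1 (8.97), Lyz2 (7.12), Cd14 (6.90) and Cd68 (6.52). Mpeg1 was at 10.32 in experiment 4 and 7.28 in experiment 6, against 4.80, 4.60 and 4.52 at D2. Among the D9 arrays 11 of the 19 were highest in experiment 5, some of them under the limit. Adgre1 (4.44), Csf1r (4.21), C1qa (3.80) and Tyrobp (4.21) stayed at background on the D9 array of experiment 5. None of the 13 endothelial, 14 lymphocyte and 5 erythroid markers measured was above the limit on it. Of 14 erythroid genes 9 were not read, among them 6 globins, whose probe sets carry several symbols.

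**Figure D1:**
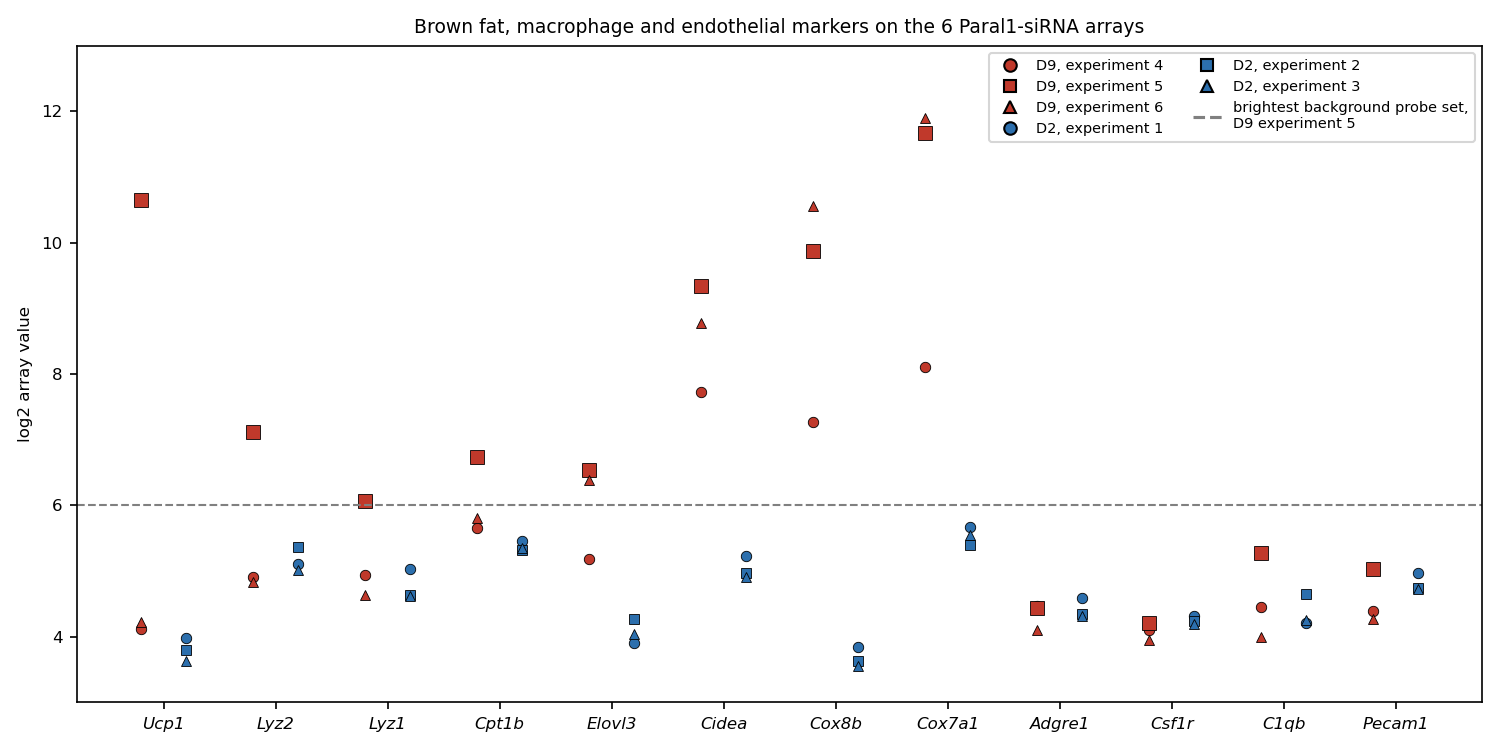
Log2 array values of brown fat, macrophage and endothelial markers on the 3 D9 (red) and 3 D2 (blue) Paral1-siRNA arrays, with 1 symbol per experiment and a dashed line at the brightest background probe set of the D9 array of experiment 5. Ucp1 (10.65) and Lyz2 (7.12) stand out on the D9 array of experiment 5, Cox8b and Cox7a1 are high on all 3 D9 arrays, and Adgre1, Csf1r and Pecam1 lie under the line on all 6.

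Between the days, 10542 of the 30638 probe sets (34.4%) passed the limma test at an adjusted p under 0.05 and are here said to be called. Higher at D9 were 4017 probe sets (13.1%) and lower were 6525 (21.3%), and 4349 of them differed at least 2-fold, 2326 higher and 2023 lower. The large differences were mostly gains, with 138 called probe sets higher by 5 log2 units or more and 6 lower by as much. Counted once per gene the shares were again 13.1% and 21.3%. Among the 11864 genes above the background limit 22.9% were higher and 19.6% lower. The gene lists below count all measured members. Lists mostly above the limit are to be set against these last shares. Lists with many members under it, such as cytokines (10 of 29 above the limit) and matrix proteases (12 of 24), are nearer to the shares over all genes. Counts close to such shares do not set a list apart. The median difference was -0.16 log2 units over all genes and 0.03 over those above the limit, and the median SD among 3 arrays was 0.21 at D9 and 0.35 at D2. The D9 and D2 arrays did not overlap for 4012 of the higher and 6522 of the lower probe sets. A two-sided exact permutation test of 3 arrays against 3 cannot give a p below 0.1, its value wherever the groups do not overlap. Leaving out the D9 array of experiment 5 gave 6793 called probe sets. Leaving out that of experiment 6 gave 6377, and leaving out the D2 array of experiment 3 gave 6870. Without the D9 array of experiment 5 and the D2 array of experiment 1 together the number was 8327, of which 7199 were called in the same direction with all 6 arrays.

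**Figure D2:**
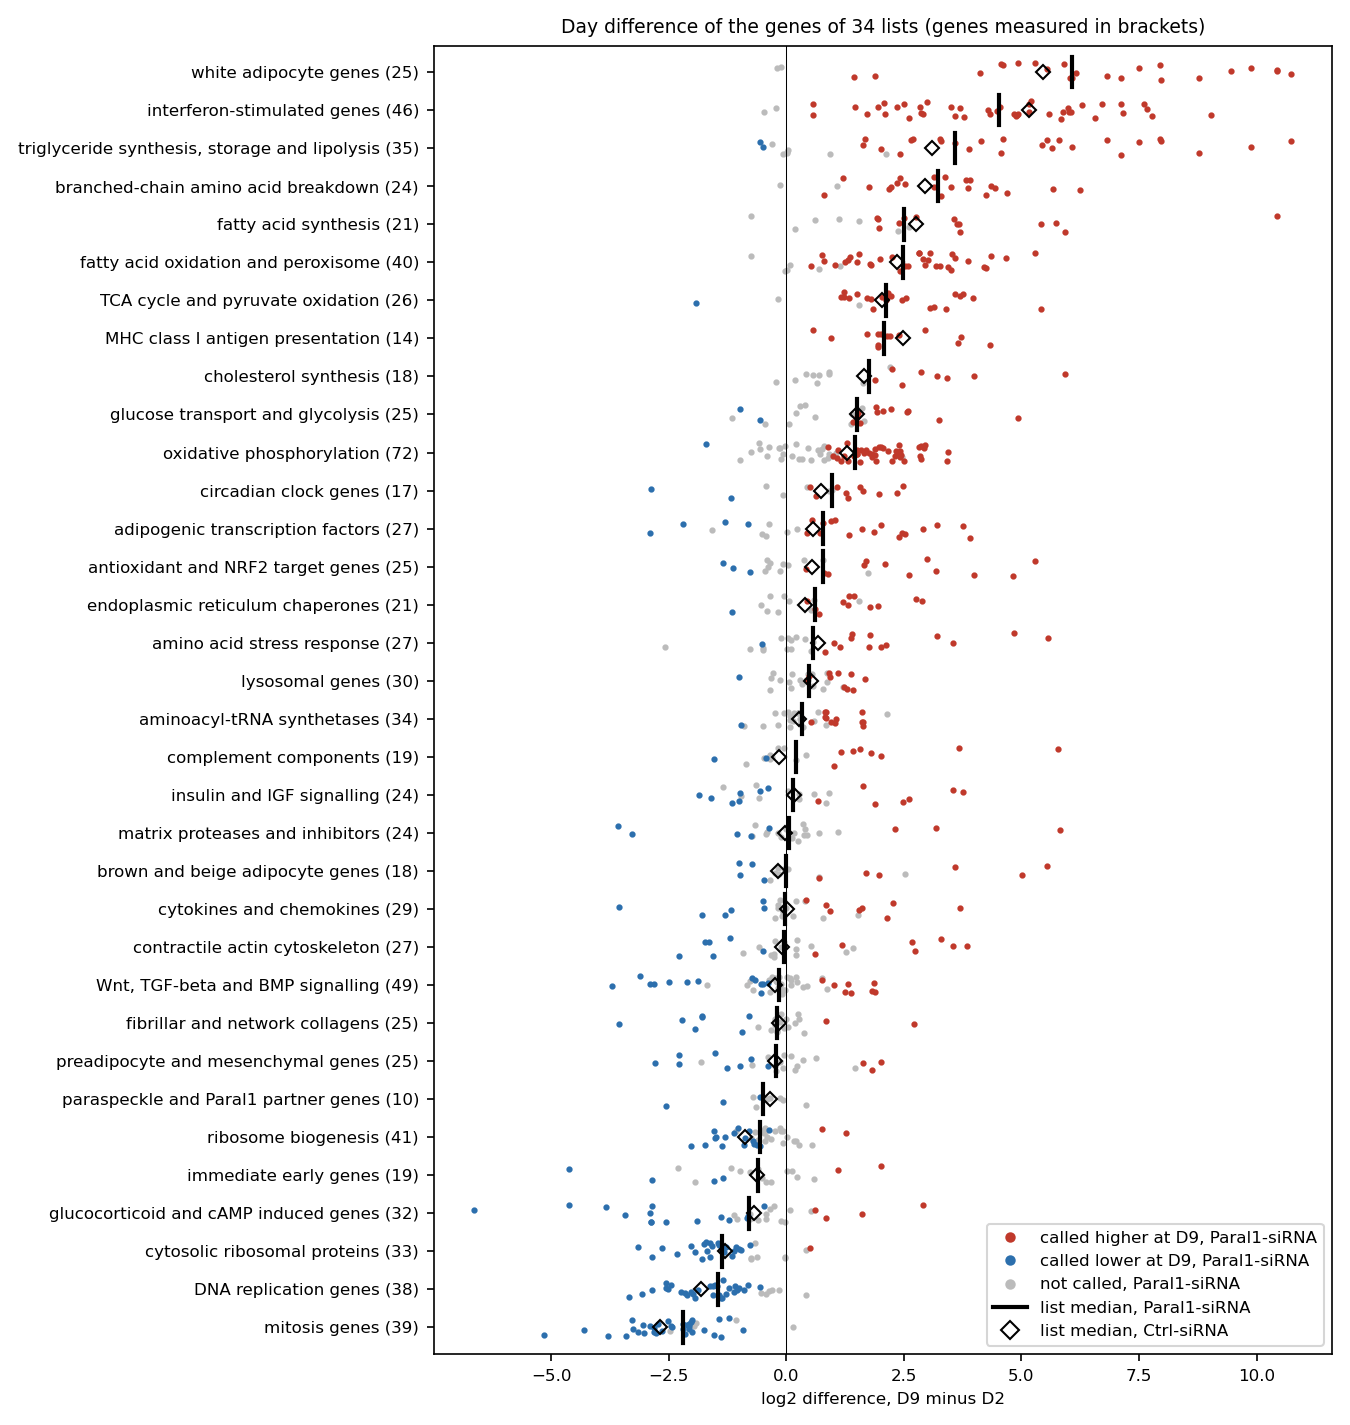
Log2 difference, D9 minus D2, of each gene of the lists described in the text, with Paral1-siRNA genes called higher in red, called lower in blue and not called in grey, the Paral1-siRNA median as a bar and the Ctrl-siRNA median as a diamond. White adipocyte genes (median 6.08) stand at the top and mitosis genes (median -2.20) at the bottom.

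Adipocyte markers were high on every D9 array. All 5 genes taken as adipocyte identity markers rose, by a median of 7.50 log2 units, and their median level was 16.24, 16.44 and 16.57 in D9 experiments 4, 5 and 6, against 6.79, 10.39 and 8.46 in D2 experiments 1, 2 and 3. Of 5 fibroblast markers 1 rose and 1 fell, with a median difference of -0.33. In such bulk samples, fewer cells of a type and less RNA per cell cannot be told apart. Of 25 white adipocyte genes 23 rose and none fell, with a median of 6.08 log2 units, and leaving out any 1 array kept 21 or 22 of them called.

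Fabp4, the fatty acid binding protein of the adipocyte cytosol, was among the brightest genes at D9, at 19.09, 18.88 and 19.11, against 6.79, 13.78 and 10.20 at D2. Its 3 D2 arrays spread widely, with experiment 1 the lowest and experiment 2 the highest, and all lay under the D9 arrays. The difference was 8.77 log2 units (SE 1.61, adjusted p = 0.0091). Lpl, the lipase that frees fatty acids from lipoproteins, showed the same order at D2, with 17.76, 17.89 and 17.99 at D9 against 7.04, 12.38 and 10.41. So did resistin (Retn), an adipocyte hormone, at 18.13, 18.20 and 18.38 at D9 against 6.55, 11.03 and 8.75 at D2, and Cidec, which enlarges lipid droplets, at 17.23, 16.75 and 17.29 against 7.42, 13.08 and 9.45. Experiment 1 was lowest and experiment 2 highest at D2 for each of these 4 genes.

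Other adipocyte genes were at or near background at D2 in every experiment. Adiponectin (Adipoq), the main hormone of the fat cell, was at 16.24, 16.44 and 16.57 at D9, against 5.62, 6.88 and 5.44 at D2, which makes at least 1150-fold over the background limit (adjusted p = 4.9e-05). Gpd1, which makes the glycerol backbone of triglyceride, was at 16.55, 16.65 and 17.63 at D9 against 6.08, 6.44 and 6.11 at D2 (difference 10.74, SE 0.30). The largest difference of all belonged to Apoc1, an apolipoprotein, at 17.71, 17.69 and 17.56 at D9 against 4.54, 4.20 and 4.31 at D2. It was at least 2700-fold higher at D9 (adjusted p = 5.6e-07), with an SD of 0.084 among the D9 arrays.

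Thrsp, a regulator of lipogenesis, was at least 530-fold higher, and Lgals12, a galectin of lipid droplets, at least 415-fold. Pck1, the enzyme that supplies glycerol phosphate from pyruvate, varied among the D9 arrays, at 11.09, 13.06 and 13.63, against 4.71, 4.65 and 4.52 at D2, and was at least 81.1-fold higher. Perilipin 1 (Plin1), which coats the droplet, differed by 7.50 and the insulin-responsive glucose transporter Slc2a4 was at least 16.4-fold higher. The hormone-sensitive lipase Lipe differed by 5.53 and Pnpla2, the first triglyceride lipase, by 4.56. Leptin (Lep), a hormone of large fat cells in tissue, was under the background limit of its array on all 6 arrays, at 5.46, 5.30 and 6.71 at D9 against 4.40, 4.44 and 4.29 at D2.

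**Figure D3:**
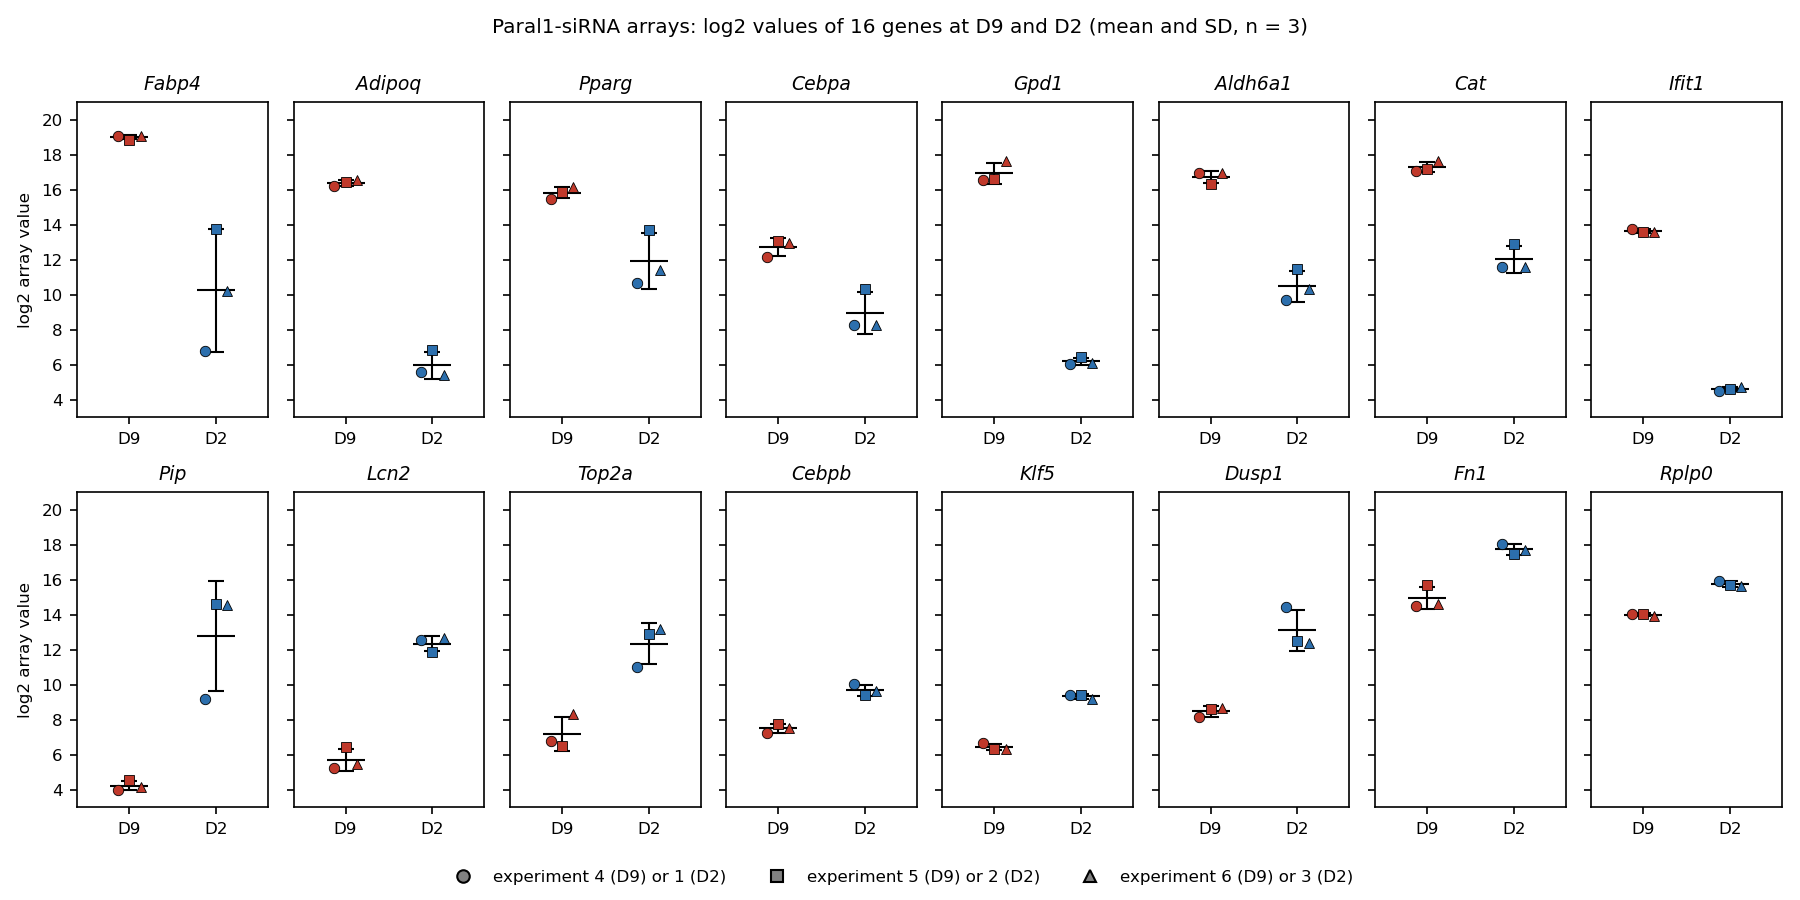
Log2 array values of 16 genes on the D9 (red, left) and D2 (blue, right) Paral1-siRNA arrays, with 1 symbol per experiment, and the mean and SD (n = 3) in black. The D9 arrays lie close together for Fabp4 and Pparg while the D2 arrays spread, and the genes of the lower row are all lower at D9.

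Among the transcription factors, Pparg and Cebpa, which act late in the cascade, were higher at D9 and Cebpb and Klf5, which act early, were lower. Early and late factors were not tested as groups. Zfp423 (0.79), Stat5a (0.72), Stat5b (0.55) and Ebf2 (0.43) were also called higher, and each lost its call in the limma fit with values floored at background. Stat5a, Stat5b and Ebf2 lay above the limit on all 6 arrays, so the floor changed none of their values. Only their adjusted p moved, to 0.42, 0.73 and 0.80. Of 27 adipogenic factors 17 rose and 4 fell (median 0.79), and 2 fell without the D9 array of experiment 5 or 6. Pparg, the master regulator, was at 15.51, 15.86 and 16.15 at D9 against 10.67, 13.72 and 11.43 at D2, a difference of 3.90 (SE 0.75, adjusted p = 0.011, and 0.052 in the methods' t-test). Cebpa was at 12.16, 13.09 and 12.95 at D9 against 8.26, 10.37 and 8.31 at D2 (difference 3.75, adjusted p = 0.0060). In both, the D2 array of experiment 2 stood above experiments 1 and 3, and no D2 array reached the D9 level.

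Cebpb was at 7.27, 7.75 and 7.51 at D9 against 10.04, 9.42 and 9.66 at D2, so that it fell by 2.20 (adjusted p = 9.7e-04), and Klf5 was at 6.67, 6.35 and 6.33 against 9.45, 9.41 and 9.20 and fell by 2.90 (adjusted p = 1.0e-04). Cebpd was at 6.51, 6.82 and 6.48 at D9 against 9.57, 7.30 and 7.71 at D2 and was not called (adjusted p = 0.073), although the arrays did not overlap. It was called without the D2 array of experiment 1, which held the highest value (adjusted p = 0.016), and without that of experiment 2 (adjusted p = 0.043). Gata2, a factor of preadipocytes, was at background at D9, and its call was lost without the D9 array of experiment 5 (adjusted p = 0.053) or 6 (adjusted p = 0.050). The retinoid receptor Rxra fell by 1.30, a call lost without the D9 array of experiment 5 (adjusted p = 0.069) or 6 (adjusted p = 0.079).

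Factors of lipid metabolism and hormone response were higher at D9. The liver X receptor Nr1h3 rose by 2.47, Ebf1 by 2.52 and the glucocorticoid receptor Nr3c1 by 1.87. The coactivator Ppargc1a, at background at D2, was at least 4.09-fold higher. The carbohydrate sensor Mlxipl was called higher as deposited but was above background on only 2 D9 arrays and on no D2 array, and with values floored at background its call was lost (adjusted p = 0.76). Ddit3, a stress-induced member of the C/EBP family, was at 11.22, 12.77 and 11.82 at D9 against 8.80, 8.59 and 8.79 at D2 (difference 3.21, adjusted p = 0.0020). Both of its probe sets were called, the second at 3.14. Among the Krüppel-like factors Klf15 rose by 1.61 and Klf6 by 2.01, while Klf4 (0.24, adjusted p = 0.32) and Klf9 (-0.44, adjusted p = 0.39) were not called. Klf2 was under the background limit of its array on all 6 arrays, so no difference can be read. Klf9 was called lower without the D2 array of experiment 1 (adjusted p = 0.0068). Prdm16, the brown fat factor, was under the background limit on all 6 arrays. Of the protein-coding neighbours of the Paral1 locus, Pak7 was at background on every array and Ankef1 was at 6.76, 6.53 and 7.08 at D9 against 5.56, 6.01 and 5.79 at D2, with every D2 value under its array's limit. It was called as deposited (adjusted p = 0.0096) but not with values floored at background (adjusted p = 0.80).

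Genes of fat storage and synthesis rose together. Of 35 genes of triglyceride synthesis, storage and lipolysis 26 rose and 2 fell (median 3.58), and 0 to 2 fell with 1 array left out. Cd36, the fatty acid translocase, was at 16.54, 16.51 and 17.58 at D9 against 5.70, 8.13 and 7.17 at D2 (difference 9.88, SE 0.63, adjusted p = 2.9e-04). Agpat2 differed by 4.61, Lpin1 by 3.89 and Gpam by 3.27, which act in successive steps of glycerolipid synthesis. Of 21 genes of fatty acid synthesis 14 rose and none fell (median 2.50). Fasn, the fatty acid synthase, was at 14.14, 14.98 and 16.32 at D9 against 12.01, 11.87 and 10.68 at D2 (difference 3.62, adjusted p = 0.0070). Me1, the malic enzyme that supplies NADPH for this synthesis, was at 13.75, 14.51 and 16.01 against 8.17, 10.82 and 9.04 (difference 5.41, adjusted p = 0.0049).

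Cholesterol synthesis genes were ordered by experiment at D9, lowest in experiment 4 and highest in experiment 6, with both siRNAs. Fdps, which makes farnesyl diphosphate in the cholesterol pathway, was at 9.55, 11.23 and 13.20 at D9 against 7.44, 7.84 and 6.74 at D2. The difference was 3.98 (adjusted p = 0.017), and the call was lost without the D9 array of experiment 5 (adjusted p = 0.052) or the D2 array of experiment 3 (adjusted p = 0.056). Insig1, the sterol sensor that restrains this pathway, was at 12.11, 13.45 and 15.29 at D9 against 7.46, 8.02 and 7.57 at D2 (difference 5.93, adjusted p = 0.0027). Lss was at 8.29, 8.98 and 10.82 at D9 and Cyp51 at 9.33, 10.33 and 12.17, and neither was called. The median over 18 cholesterol synthesis genes was 8.37, 9.34 and 11.00 in D9 experiments 4, 5 and 6 with Paral1-siRNA and 9.00, 9.40 and 11.01 with Ctrl-siRNA, against 7.55, 7.95 and 7.17 in D2 experiments 1, 2 and 3 with Paral1-siRNA. Of the 18 genes 8 were called higher and none lower. Of the D9 arrays, leaving out experiment 5 brought that count to 1 and leaving out experiment 6 brought it to 3. Of the D2 arrays, leaving out experiment 1 or 2 brought it to 5 and leaving out experiment 3 to 2.

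**Figure D4:**
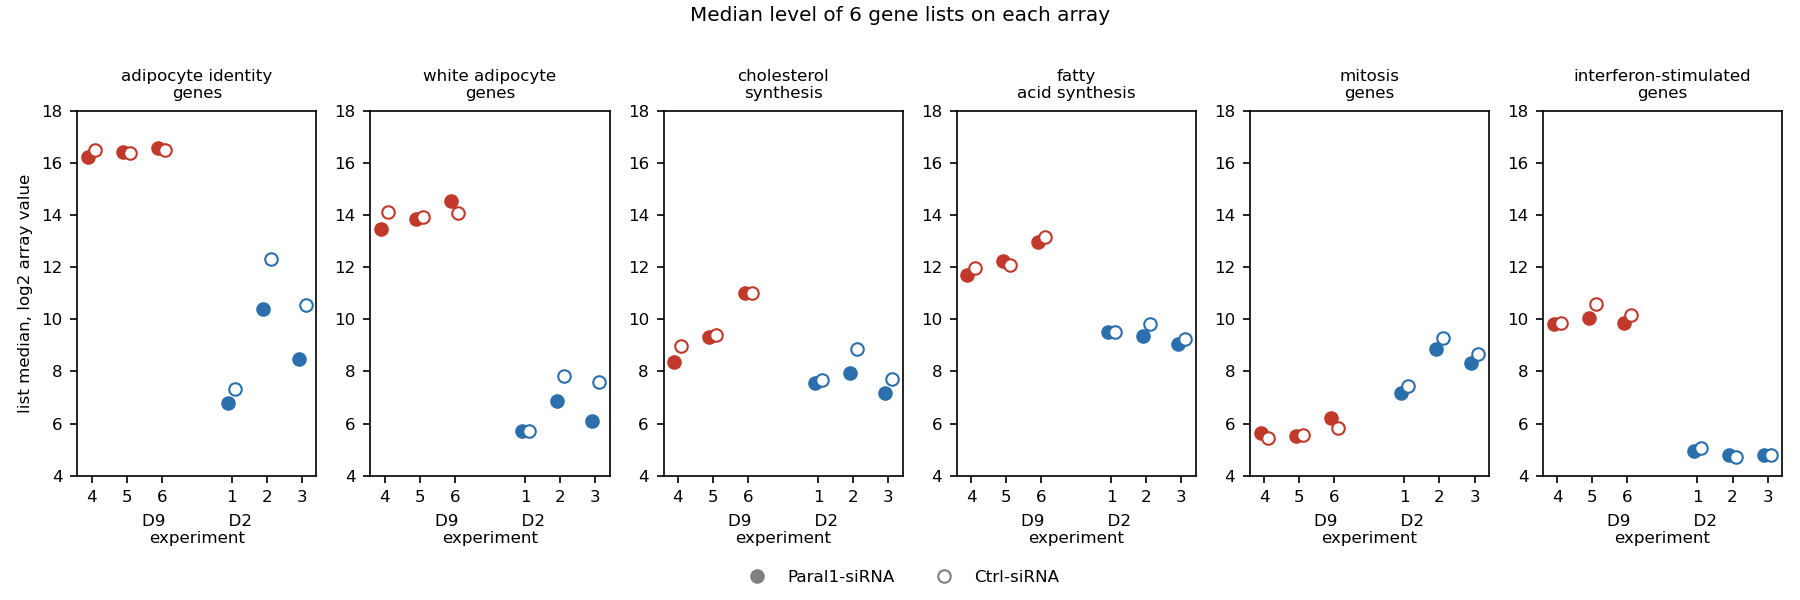
Median log2 array value of 6 gene lists on each array, by experiment, with D9 in red, D2 in blue, Paral1-siRNA filled and Ctrl-siRNA open. At D9 the cholesterol synthesis median differs between experiments 4, 5 and 6 (8.37, 9.34 and 11.00 with Paral1-siRNA), and at D2 the adipocyte identity median differs between experiments 1, 2 and 3 (6.79, 10.39 and 8.46).

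Mitochondrial genes rose at D9, in fuel oxidation and in the respiratory chain. Of 24 genes of branched-chain amino acid breakdown 22 rose and none fell (median 3.22). Aldh6a1, which acts late in valine breakdown, was at 16.94, 16.37 and 16.96 at D9 against 9.70, 11.47 and 10.34 at D2 (difference 6.25, SE 0.45, adjusted p = 4.3e-04). Dbt, a subunit of the branched-chain keto acid dehydrogenase, was at 12.61, 11.99 and 12.45 against 6.27, 7.23 and 6.52 (difference 5.67). For both genes experiment 5 was the lowest of the D9 arrays and experiment 2 the highest of the D2 arrays. Fatty acid oxidation and peroxisome genes rose in 34 of 40 cases and none fell (median 2.47), with catalase (Cat) at 17.11, 17.21 and 17.65 against 11.61, 12.92 and 11.58 and the medium-chain dehydrogenase Acadm higher by 4.67. Of 26 genes of the citric acid cycle and pyruvate oxidation 23 rose (median 2.13), and Idh2 alone fell, by 1.92 (adjusted p = 0.0036). Mdh1 rose by 3.98.

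Of 72 genes of oxidative phosphorylation 44 rose and 1 fell (median 1.47), and 28 rose without the D9 array of experiment 5. Ndufa9 of complex I was at 14.00, 14.54 and 15.00 at D9 against 11.46, 11.11 and 10.68 at D2 (difference 3.43), and Sdha of complex II differed by 3.42 (adjusted p = 1.0e-04). Atp5g1, which encodes subunit c of the ATP synthase, was the one that fell, by 1.70. Brown and beige adipocyte genes did not move as a block, with 6 of 18 higher and 4 lower, and 2 lower without the D9 array of experiment 6. Those that rose included muscle and brown fat isoforms of cytochrome oxidase subunits. Cox8b was at 7.27, 9.87 and 10.55 at D9 against 3.85, 3.63 and 3.56 at D2, at least 7.87-fold higher, and Cox7a1 at 8.11, 11.66 and 11.90 against 5.68, 5.40 and 5.55, at least 19.8-fold higher. The call of Cox7a1 was lost without the D9 array of experiment 5 and the D2 array of experiment 1 together (adjusted p = 0.062). For both the D9 array of experiment 4 was the lowest, and experiment 6, not experiment 5, the highest. Ucp1 itself was not called (adjusted p = 0.29).

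Glucose metabolism moved less evenly. Of 25 genes of glucose transport and glycolysis 12 rose and 2 fell (median 1.50), and 7 rose without the D9 array of experiment 5 or 6 or the D2 array of experiment 3. With 1 array left out 0 to 2 fell. Pfkfb3, which sets the glycolytic rate, rose by 3.24. In insulin and IGF signalling 7 of 24 genes rose and 7 fell, and 4 fell without the D9 array of experiment 5 or 6. The adaptor Irs1 was at 11.96, 10.93 and 11.77 at D9 against 7.58, 8.31 and 7.47 at D2 (difference 3.76, adjusted p = 8.7e-04), and the Akt inhibitor Trib3 was at least 6.31-fold higher. Igf2r, the receptor that clears IGF2, fell by 1.59.

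Cell division genes gave the most uniform fall. Of 39 mitosis genes 34 fell and none rose (median -2.20), and of 38 DNA replication genes 32 fell and none rose (median -1.46). With any 1 array left out 26 to 38 mitosis genes and 30 to 32 replication genes were called lower. The mitosis median was 5.65, 5.51 and 6.20 in D9 experiments 4, 5 and 6, against 7.18, 8.85 and 8.31 in D2 experiments 1, 2 and 3, and experiment 1, the D2 array with the lowest adipocyte markers, also had the lowest mitosis median at D2. Top2a, the topoisomerase that untangles DNA before division, was at 6.80, 6.50 and 8.33 at D9 against 11.00, 12.89 and 13.20 at D2 and fell by 5.15 (SE 0.71, adjusted p = 0.0036). Ube2c, which works with the anaphase-promoting complex, was at 6.50, 6.41 and 7.28 against 10.56, 11.33 and 11.19 and fell by 4.30 (adjusted p = 4.1e-04). The mitotic kinase Plk1 was at 5.82, 5.95 and 6.86 against 9.97, 10.43 and 9.62. Rrm2, which makes deoxynucleotides, was at least 6.68-fold lower at D9, and Mcm5 of the replicative helicase at least 3.63-fold lower. On the D9 arrays these genes lay near the background limit.

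Mitosis genes often carry in their promoters a cell cycle homology region, TTTGAA, and CCAAT boxes, and the promoters of the 3 mitosis genes with the largest called falls among those holding both are shown, since they let this shared layout be seen. Each window runs from 250 bases before to 50 bases after the start of the gene in RefSeq (build GRCm38.p6), 5′ to 3′ on the gene's strand, with both motifs, read on either strand, in capitals. Matches on opposite strands can share bases. Top2a is shown from chr11:99024140-99024439 on the minus strand, Ube2c from chr2:164769679-164769978 on the plus strand and Plk1 from chr7:122159185-122159484 on the plus strand, with 8, 7 and 2 matches.
Top2a: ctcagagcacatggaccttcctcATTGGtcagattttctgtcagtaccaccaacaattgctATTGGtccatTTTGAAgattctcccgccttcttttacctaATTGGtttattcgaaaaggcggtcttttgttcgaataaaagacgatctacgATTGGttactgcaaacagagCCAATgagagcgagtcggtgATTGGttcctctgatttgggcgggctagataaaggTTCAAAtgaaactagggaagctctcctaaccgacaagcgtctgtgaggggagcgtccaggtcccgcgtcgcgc
Ube2c: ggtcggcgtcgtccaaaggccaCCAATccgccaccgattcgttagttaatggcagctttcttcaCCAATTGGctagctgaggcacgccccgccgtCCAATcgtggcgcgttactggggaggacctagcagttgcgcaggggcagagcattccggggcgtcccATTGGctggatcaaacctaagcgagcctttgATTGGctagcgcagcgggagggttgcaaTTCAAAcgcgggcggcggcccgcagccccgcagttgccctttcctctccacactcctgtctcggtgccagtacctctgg
Plk1: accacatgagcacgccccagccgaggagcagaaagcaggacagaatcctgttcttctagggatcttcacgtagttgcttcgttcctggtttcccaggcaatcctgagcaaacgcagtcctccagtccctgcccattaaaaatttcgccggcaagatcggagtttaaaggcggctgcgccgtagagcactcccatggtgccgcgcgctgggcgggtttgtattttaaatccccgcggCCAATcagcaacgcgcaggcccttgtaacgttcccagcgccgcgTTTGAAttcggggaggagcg
A promoter holding both motifs on either strand was found for 22 of the 33 mitosis genes with a promoter in the table (66.7%), for 5 of 32 DNA replication genes (15.6%) and for 2155 of 27025 genes in all (7.97%). TTTGAA alone was in 78.8% of the mitosis promoters, against 18.8% for DNA replication and 20.2% for all genes, and CCAAT in 75.8%, against 59.4% and 41.1%. A match describes the letters of the window only.

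Genes that components of the induction medium are known to raise fell more often than they rose. Of 32 genes induced by glucocorticoid or cyclic AMP 15 fell and 4 rose (median -0.80). Lcn2, a secreted lipocalin, was at 5.26, 6.43 and 5.49 at D9 against 12.54, 11.87 and 12.67 at D2 and fell by 6.63 (SE 0.36, adjusted p = 1.4e-04). Dusp1, a phosphatase that switches off MAP kinases, was at 8.15, 8.62 and 8.71 against 14.48, 12.49 and 12.38 and fell by 4.62 (adjusted p = 0.0024). The glucocorticoid-induced chaperone Fkbp5 fell by 3.44 and the metallothionein Mt2 by 3.83. The 4 that rose included Klf15 (by 1.61) and Ppargc1a (at least 4.09-fold), both given above among the transcription factors. The hormones were present at D2 and absent at D9, which cannot be told apart from the day itself.

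The deepest fall was that of Pip, a small secreted protein, at 4.01, 4.55 and 4.17 at D9 against 9.17, 14.60 and 14.58 at D2. It was at least 82.5-fold lower at D9 (adjusted p = 0.0070), and the D2 array of experiment 1 was again apart. Ear-ps2 and Ear10 fell by 6.37 and 5.09, but they belong to a family of near-identical ribonuclease genes whose signals cannot be told apart. Sulf2, a sulfatase that edits heparan sulfate at the cell surface, was at 9.10, 9.56 and 9.49 against 14.30, 13.88 and 13.67 and fell by 4.56 (adjusted p = 1.0e-04). Capn6, a calpain without protease activity, fell by 4.69. Prg4, the lubricin of joint fluid, fell by 4.92, and its call was lost without any 1 of the D9 arrays (adjusted p = 0.052 to 0.081).

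Among preadipocyte and mesenchymal genes 8 of 25 fell and 3 rose (median -0.22), and 5 fell and 1 rose without the D9 array of experiment 6. Fibronectin (Fn1) was at 14.54, 15.72 and 14.65 at D9 against 18.08, 17.47 and 17.73 at D2 and fell by 2.79 (adjusted p = 0.0024). The mesenchymal factor Twist2 fell by 2.28, while the Wnt antagonist Sfrp2 rose by 1.82. Of 25 collagens 7 fell and 2 rose (median -0.21). Col12a1 was at 8.49, 8.04 and 9.22 against 11.04, 11.95 and 13.40 and Col6a2 fell by 2.22, while Col15a1, a basement membrane collagen, was at least 3.48-fold higher, a call lost without the D9 array of experiment 5 and the D2 array of experiment 1 together (adjusted p = 0.053). Matrix proteases went both ways, with 3 of 24 higher and 5 lower, and 3 lower without the D9 array of experiment 4 or 6 or the D2 array of experiment 1 or 3. Adamts1 fell by 3.57 and the gelatinase Mmp2 by 3.28, while Mmp11 was at 11.75, 13.56 and 8.99 at D9 against 6.15, 5.26 and 5.42 at D2 (difference 5.82, adjusted p = 0.0096), with experiment 6 well under the other D9 arrays. In Wnt, TGF-β and BMP signalling 8 of 49 genes rose and 13 fell, and without the D9 array of experiment 4, 5 or 6 the number that rose was 5, 5 or 3 and the number that fell 8, 6 or 8. Lrp5, a Wnt co-receptor, fell by 3.11. Of 27 contractile genes 7 rose and 6 fell (median -0.06), and 3 fell without the D9 array of experiment 5 or 6. Acta2 rose by 3.55 and Des at least 4.58-fold, while Tagln2 fell by 2.28.

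The second large gain was in genes that interferon induces. Of 46 interferon-stimulated genes 44 rose and none fell (median 4.51), and 42 to 44 rose with any 1 array left out. Their median level was 9.83, 10.06 and 9.86 in D9 experiments 4, 5 and 6, against 4.95, 4.78 and 4.79 in D2 experiments 1, 2 and 3, where most were at background. With Ctrl-siRNA 44 of the 46 also rose, with a median of 5.17. Ifit1, which binds viral RNA ends, was at 13.77, 13.60 and 13.60 at D9 against 4.53, 4.61 and 4.74 at D2, at least 169-fold higher (adjusted p = 1.5e-06). Usp18, which restrains interferon signalling, was at least 80.6-fold higher. Ifit3 was at 12.65, 12.46 and 12.09 against 4.72, 5.01 and 4.49, though the array may not part it from its copy Ifit3b, and the guanylate-binding protein Gbp2 was at 12.58, 12.33 and 12.46 against 4.64, 4.88 and 5.01. Mode of transfection, experiment and day all differ between these arrays and cannot be told apart.

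All 14 genes of MHC class I antigen presentation rose (median 2.08). B2m, the invariant chain of class I, was at 19.64, 19.61 and 19.44 at D9 against 14.92, 14.90 and 15.88 at D2 (difference 4.32, adjusted p = 2.9e-04), near the top of the scale, and the immunoproteasome subunit Psmb10 rose by 3.72. Cytokines and chemokines went both ways, with 8 of 29 higher and 6 lower. Without the D9 array of experiment 5, 5 were higher, and the lower ones numbered 3, 3 or 2 without the D9 array of experiment 4, 5 or 6 and 2 without the D2 array of experiment 3. The monocyte attractant Ccl2 was at 10.61, 9.85 and 10.13 against 6.37, 6.01 and 7.15 (difference 3.69, adjusted p = 8.8e-04), while Cxcl13 was at 7.05, 7.12 and 6.45 against 9.49, 9.89 and 11.93. Of 19 complement components 8 rose and 2 fell, and 0 to 3 fell with 1 array left out. C4b was at 11.33, 13.19 and 10.84 against 5.93, 6.06 and 6.05, and its signal may include its near copy C4a.

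The interferon-stimulated response element has the core GAAANNGAAA, and the promoters of the 3 interferon-stimulated genes with the largest called gains among those holding it are shown to set beside the mitosis promoters. The windows, build and strand are given as above, with the core or its reverse complement in capitals. Ifit1 is shown from chr19:34640639-34640938, Ifit3 from chr19:34583279-34583578 and Gbp2 from chr3:142620413-142620712, each on the plus strand and with 2, 2 and 1 matches.
Ifit1: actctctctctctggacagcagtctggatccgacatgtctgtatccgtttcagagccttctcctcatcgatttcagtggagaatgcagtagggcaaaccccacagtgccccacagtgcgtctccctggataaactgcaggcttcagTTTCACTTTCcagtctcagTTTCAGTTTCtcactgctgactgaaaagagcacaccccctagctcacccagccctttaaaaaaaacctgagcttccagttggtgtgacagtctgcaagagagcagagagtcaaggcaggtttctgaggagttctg
Ifit3: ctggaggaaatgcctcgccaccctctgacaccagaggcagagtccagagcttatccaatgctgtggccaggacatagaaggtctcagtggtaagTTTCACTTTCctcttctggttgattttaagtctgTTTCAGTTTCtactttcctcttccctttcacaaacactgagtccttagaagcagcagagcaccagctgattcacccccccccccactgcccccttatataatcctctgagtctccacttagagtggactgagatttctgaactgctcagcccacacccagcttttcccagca
Gbp2: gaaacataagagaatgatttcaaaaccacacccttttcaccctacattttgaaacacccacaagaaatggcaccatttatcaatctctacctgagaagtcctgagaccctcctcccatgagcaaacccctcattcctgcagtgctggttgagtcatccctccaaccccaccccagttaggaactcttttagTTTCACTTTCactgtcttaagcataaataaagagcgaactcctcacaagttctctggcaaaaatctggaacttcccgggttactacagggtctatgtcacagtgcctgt
The core was found on either strand in 20 of the 35 interferon-stimulated genes with a promoter in the table (57.1%), in 3 of 12 MHC class I genes (25%), in 3 of 33 mitosis genes (9.09%) and in 1079 of 27025 genes in all (3.99%). This motif was chosen after the values of these genes had been seen.

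Most of the cytosolic ribosomal protein genes that were measured were lower at D9. Only 33 of the 76 in the list were measured. Of these 25 fell and 1 rose (median -1.37), and 20 to 25 fell with any 1 array left out. Such genes have many processed copies in the genome whose signal the array may share. Rpl10a was at 11.55, 11.80 and 11.38 at D9 against 14.86, 14.74 and 14.57 at D2 and fell by 3.15 (adjusted p = 1.0e-04). Rplp0, often used as a reference gene, was at 14.05, 14.07 and 13.91 against 15.95, 15.70 and 15.64 and fell by 1.75 (adjusted p = 4.5e-04). The one that rose, Rpl31, did so by 0.51 and lost its call without any 1 array other than the D2 array of experiment 1. Of 41 ribosome biogenesis genes 17 fell and 2 rose (median -0.55), and 27 fell without the D2 array of experiment 1. Fibrillarin (Fbl), which methylates ribosomal RNA, was at 8.94, 8.90 and 8.94 against 10.96, 11.14 and 10.76.

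Stress and secretory genes mostly rose where they moved. Of 27 genes of the amino acid stress response 13 rose and 1 fell (median 0.57, with 0 to 2 lower when 1 array was left out), and of 21 endoplasmic reticulum chaperones 11 rose and 1 fell (median 0.62), with 7 higher without the D9 array of experiment 5. Ero1a, the oxidase that drives disulfide formation, was at 13.11, 17.42 and 16.02 at D9 against 8.98, 10.21 and 10.69 at D2 (difference 5.56, adjusted p = 0.012), and its call was lost without the D9 array of experiment 6 (adjusted p = 0.050). Experiment 4 was well under the other D9 arrays. Nupr1, a stress-induced nuclear protein, was at 11.42, 12.63 and 11.78 against 7.33, 6.71 and 7.26 (difference 4.84), and Herpud1, which acts in the removal of misfolded proteins, rose by 2.89. The chaperone Calr fell by 1.15.

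The remaining lists moved less or in part. Of 34 aminoacyl-tRNA synthetases 12 rose and 1 fell, and 7 rose without the D9 array of experiment 5 or 6. Of 30 lysosomal genes 10 rose and 1 fell, and 5 or 6 rose without the D9 array of experiment 5 or 6 or the D2 array of experiment 3. Antioxidant genes rose in 12 of 25 cases and 3 fell, or 5 without the D2 array of experiment 1, with the glutathione transferase Gstm1 at 14.20, 13.91 and 14.38 at D9 against 10.08, 9.21 and 8.70 at D2. Of 19 immediate early genes 2 rose and 4 fell, and Nr4a1 fell by 2.86. Clock genes rose in 10 of 17 cases and 2 fell (median 0.97). The clock output factor Dbp was at 9.38, 9.91 and 9.97 against 7.54, 7.21 and 7.46, whereas Per1, which glucocorticoids induce, was at 7.43, 7.38 and 7.01 against 11.33, 9.25 and 9.86 and fell by 2.87 (adjusted p = 0.0081). Of 10 genes of paraspeckles and of proteins that bind Paral1, none rose and 3 fell, and 7 fell without the D2 array of experiment 1. Nono, a core paraspeckle protein, was at 11.28, 11.34 and 11.33 against 12.67 on each D2 array and fell by 1.35 (adjusted p = 4.1e-04), while the paraspeckle RNA Neat1 was not called (-0.34, adjusted p = 0.52).

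The Ctrl-siRNA arrays of the same experiments allowed the day difference to be set beside that without the knockdown reagent. With Ctrl-siRNA 10306 of 30638 probe sets were called between the days (33.6%), 4124 higher and 6182 lower at D9. Called the same way with both siRNAs were 3368 higher and 4745 lower probe sets, which is 77.0% of the Paral1-siRNA calls and 78.7% of the Ctrl-siRNA calls, and 1 was called in opposite directions. White adipocyte genes had a median difference of 6.08 with Paral1-siRNA and 5.45 with Ctrl-siRNA, and mitosis genes -2.20 and -2.69. At D2 the adipocyte identity median was 6.79, 10.39 and 8.46 with Paral1-siRNA and 7.33, 12.31 and 10.54 with Ctrl-siRNA in experiments 1, 2 and 3, lower with Paral1-siRNA in each. At D9 it was 16.24, 16.44 and 16.57 with Paral1-siRNA and 16.49, 16.40 and 16.48 with Ctrl-siRNA in experiments 4, 5 and 6.

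When the difference between these day differences was tested itself, as an interaction of siRNA and day over the 12 arrays, 0 probe sets (0%) were called by limma, 331 had an unadjusted p under 0.05, where 1531.9 would be expected by chance, and the lowest adjusted p was 1 after rounding. That fit does not use the pairing of the 2 siRNA arrays of 1 experiment. With the experiment as a fixed block 0 were called and 2226 had an unadjusted p under 0.05, and with it as a random block 0 and 1913. Over genes above the background limit the 95% interval of the difference had a median half-width of 0.79 log2 units in the fit without a block, 0.48 with experiment as a random block and 0.39 with it as a fixed block. Retn, for example, had a day difference of 9.46 with Paral1-siRNA and 6.49 with Ctrl-siRNA (difference 2.97, SE 1.71 in the fit without a block). Rsad2, an antiviral enzyme, had the lowest p without a block and with the random block. With the fixed block the lowest was that of Ly6c2 (adjusted p = 0.252). Rsad2 was at 7.62, 7.94 and 7.81 at D9 against 4.22, 4.23 and 4.14 at D2 with Paral1-siRNA. Its day difference was 3.59 with Paral1-siRNA and 5.33 with Ctrl-siRNA, and it was the only probe set called (adjusted p = 0.027) when the D9 Ctrl-siRNA array of experiment 4 was left out.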

How the data were processed

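Total RNA of 3T3-L1 cells had been hybridised to Mouse Transcriptome Array 1.0 chips, 1 array per siRNA and experiment. The deposited values are log2 intensities, which per the labels and methods the authors made by correcting for GC content and transforming the signal scale (Affymetrix Expression Console 1.4.1) and by RMA, a background correction with quantile normalization and probe summary. The sources used here do not say if RMA was run on all 12 arrays at once. Symbols came from the platform annotation. Probe sets with several symbols (2176) were not used, and 22596 of 30638 were matched to RefSeq by Entrez ID.

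The D9 and D2 Paral1-siRNA arrays were compared with limma 3.58.1 (lmFit and eBayes, R 4.3.3, package data.table of version 1.17.8), with Benjamini-Hochberg adjustment over all 30638 probe sets and a threshold of 0.05. The difference of day differences was fitted over 12 arrays with 4 group means. Only 3 arrays per group limit the precision, with a median half-width of the 95% interval of 0.57 log2 units over genes above the background limit. Genes named were the 10 largest called differences in each direction, the 2 largest called in each direction of each list, the genes the study discusses, the adipogenic factors, the lowest p of the difference of day differences and markers of other tissues raised on the D9 array of experiment 5, and a few other list members were named after their values were seen. The members and lists were chosen with earlier results of these data known. The script was tested on simulated data. Alternatives were other scalings, a filter and a floor on dim probe sets, the methods' t-test, 12 arrays in 1 fit, other variance models, array weights, a replicate block and each array left out, and the lists without each array and a common background limit for marker counts were added after seeing the data. Replicate numbers do not pair D9 with D2, which come from different experiments (correlation of deviations -0.40 to -0.17). The 2 siRNA arrays of 1 experiment are paired by that experiment (0.718 to 0.873).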

Additional observations from a re-analysis of the deposited data

How the results depend on the processing

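Of 10542 probe sets called between D9 and D2 with Paral1-siRNA, 4886 were called with a filter on dim probe sets (2198 lower), 2212 with values floored at background (1339 higher, 873 lower, all 2212 at least 2-fold), and 6752 with the replicate number as a block (3816 lower), although those numbers pair nothing between the days. The filter removes most probe sets from the test, and the floor sets dim values equal. With the floor the adjusted p also changed for genes whose own values it left as they were. Of these calls 4842, 2189 and 6604 had the same direction with all arrays and no such setting. Leaving out 1 array gave 6377 to 10960 called probe sets, 2786 to 4561 higher and 3538 to 6399 lower. The share called higher was 38.1%, and 49.3% (4867 higher, 5000 lower) with each array centred on its median, 46.3% (4540 and 5275) with quantile normalization repeated, 55.0% with the filter and 60.5% with the floor. The median difference of all probe sets moved to -0.04 with centring and -0.05 with quantile normalization, and list medians of brown and beige genes, cytokines and contractile genes changed sign there. The methods' t-test called 8051. For the difference of day differences 0 or 1 probe sets were called with 1 array left out, and 0 with the experiment as replicate block. Gm24651 and Gm4242, both at background, turned from lower to higher with the floor (0.16 each), since the floor differs between arrays. Of 155 named genes 137 were called, 96 of them in every setting. At background no level can be read, which limits the D2 side of adipocyte and interferon genes and the D9 side of mitosis genes.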

Other observations

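The kinds of genes differed in how they moved between D9 and D2 with Paral1-siRNA, by the RefSeq class of the gene. Of 19050 protein-coding genes 3104 were called higher at D9 (16.3%) and 3680 lower (19.3%). Above the background limit the order was reversed, with 2325 of 8472 protein-coding genes higher and 1341 lower. Among all 11864 genes above that limit 22.9% were higher and 19.6% lower. Over all genes 13.1% were called higher and 21.3% lower. That lean depended on scaling, with 4867 probe sets higher and 5000 lower once each array was centred on its median. The class counts are for the values as deposited. Pseudogenes were called lower more often than higher, with 294 of 4285 higher (6.86%) and 1299 lower (30.3%). Small nucleolar RNAs, which guide the chemical modification of ribosomal RNA, had 192 of 955 higher (20.1%) and 173 lower (18.1%), while spliceosomal small nuclear RNAs had 18 of 915 higher (1.97%) and 129 lower (14.1%). Primary microRNA probe sets had 25 of 597 higher (4.19%) and 174 lower (29.1%). Of the calls, 713 of the 1299 lower and 203 of the 294 higher pseudogenes had a mean above the background limit. So did 93 of the 192 higher and 46 of the 173 lower small nucleolar RNAs and 58 of the 174 lower microRNA probe sets. Of the spliceosomal small nuclear RNAs, 3 of the 18 higher and 41 of the 129 lower did. Probe sets of 1 class can share sequence and are not independent.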
